A study of Mus musculus with 8 samples.

Results

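Corneocytes, the dead cells at the skin surface, are held together by corneodesmosomes, and they are shed when proteases cut these junctions. Kallikreins are secreted serine proteases encoded side by side in 1 gene cluster, made as inactive precursors that are activated by cleavage, in part by one another. Klk5, a trypsin-like protease, and Klk7, a chymotrypsin-like protease, are the best known of them in shedding. Spink5 encodes LEKTI, a secreted inhibitor that holds Klk5, Klk7 and Klk14 in check, and its loss in humans causes Netherton syndrome, with a peeling and leaky skin barrier. Cdsn encodes corneodesmosin, an adhesive protein of the corneodesmosome that Klk5 and Klk7 cut. The genes described here are 10 symbols chosen by name, namely Klk5, Klk6, Klk7, Klk8, Klk10, Klk11, Klk13, Klk14, Spink5 and Cdsn, and all 10 were found among the 21882 gene symbols of the deposited tables.

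RNA of mouse embryo skin was sequenced in 8 libraries, and all embryos were of strain C57BL/6. At embryonic day (E) 16.5, 2 libraries were of whole skin from mice labelled Cyp26b1-/- and 2 of whole skin labelled wild type. At E18.5, 1 library of En1cre;Cyp26b1f/- dermis was set against 1 of control dermis, and 1 library of En1cre;Cyp26b1f/- epidermis against 1 of control epidermis, with the controls labelled Cyp26b1f/+. Cyp26b1 encodes an enzyme that breaks down retinoic acid, a vitamin A derivative that restrains the late stages of keratinocyte maturation. En1cre deletes the floxed allele in cells with a history of Engrailed-1 expression, which in the trunk include much of the dermis of the back, and the f/- embryos also carry 1 deleted allele in every cell. The labels do not say whether numbered libraries came from separate embryos, and nothing shows how many animals a library holds.

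The values are FPKM, fragment counts scaled for transcript length and library size, with 1 value for each group. At E16.5 that value joins both libraries, so no spread between libraries can be given. Depth is unknown. Cyp26b1 itself was listed at 58.2 FPKM in skin labelled Cyp26b1-/- and 35.0 FPKM in wild-type skin, at 102 FPKM in En1cre dermis and 54.2 FPKM in control dermis, and at 13.7 FPKM in En1cre epidermis and 4.97 FPKM in control epidermis. A sum over the whole transcript does not show whether the deleted part was read, so it checks no label, and the libraries are called by their labels. Lens genes stood apart at E16.5. By the test given below, 7 of 8 listed markers were called higher, beside 8.37% of the 16303 genes tested. Their summed level was 1698 FPKM in skin labelled Cyp26b1-/- and 65.3 FPKM in wild-type skin, and no marker of the list was at 0 in either. Differences are log2 folds of FPKM + 1, mutant over control, given relative to the median gene, whose own log2 fold was 0.43 for E16.5 skin, 0.12 for dermis and -0.18 for epidermis.

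The 8 kallikreins lie on the plus strand of chromosome 7 (mm9) between 50945789, the start of Klk14, and 51106551, the end of Klk5, in the order Klk14, Klk13, Klk11, Klk10, Klk8, Klk7, Klk6 and Klk5. Within the cluster the stretch from Klk10 (51036424 to 51040780) through Klk8 (51052947 to 51059192) and Klk7 (51066814 to 51071729) to Klk5 (51097639 to 51106551) holds neighbours that moved in opposite directions at E16.5. The promoters of the 3 genes with the largest opposite differences are shown for that reason, from the RefSeq tables on GRCm38.p6, each found once in mm9 on the plus strand, at chr7:51036174-51036473 for Klk10, chr7:51066414-51066713 for Klk7 and chr7:51097389-51097688 for Klk5. Each runs from 250 bases before to 50 bases after the RefSeq start site, whose first base is the single capital, and the capital run TTAAAA in Klk10 marks an AT-rich word. For Klk7 that start site lies 150 bases before the start of the measured transcript at 51066814, so its stretch ends before that transcript begins.
Klk10: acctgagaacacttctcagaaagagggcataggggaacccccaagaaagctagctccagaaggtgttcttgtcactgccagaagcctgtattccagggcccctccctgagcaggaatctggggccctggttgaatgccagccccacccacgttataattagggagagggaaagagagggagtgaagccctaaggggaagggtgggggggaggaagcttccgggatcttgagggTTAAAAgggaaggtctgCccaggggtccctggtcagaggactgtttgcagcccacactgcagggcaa
Klk7: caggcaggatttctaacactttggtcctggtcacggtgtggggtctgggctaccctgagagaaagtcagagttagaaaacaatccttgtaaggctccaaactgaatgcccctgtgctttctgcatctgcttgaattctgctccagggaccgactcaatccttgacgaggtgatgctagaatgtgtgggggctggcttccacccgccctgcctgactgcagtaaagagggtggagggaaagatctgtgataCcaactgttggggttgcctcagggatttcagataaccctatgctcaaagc
Klk5: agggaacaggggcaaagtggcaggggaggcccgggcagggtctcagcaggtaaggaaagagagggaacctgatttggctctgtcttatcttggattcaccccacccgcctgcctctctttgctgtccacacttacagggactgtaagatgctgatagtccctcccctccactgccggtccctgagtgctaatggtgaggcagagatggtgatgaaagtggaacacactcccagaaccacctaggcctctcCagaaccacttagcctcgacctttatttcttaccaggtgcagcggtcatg
Of the 12 promoters that RefSeq gives for 9 of the 10 genes, 0 held TATAAA, the AP-1 word TGANTCA, the nuclear receptor word AGGTCA or the grainyhead word AACCGGTT on either strand. These words occur in 13.6%, 7.81%, 16.3% and 0.146% of 32851 promoters of the same length. The word TTAAAA, added after the sequences had been seen, was found in promoters of 4 genes, 17 bases before the start site of Klk10, 26 before that of Klk8, 68 before 1 start of Klk6 and 233 before 1 start of Klk11, and it occurs in 19.2% of all promoters.

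At E16.5 the 10 genes moved in both directions. Klk7, Klk5, Cdsn and Spink5 fell in skin labelled Cyp26b1-/-, while Klk10, Klk13 and Klk11 rose, and Klk8, Klk14 and Klk6 were not called. The call recomputed the authors' Cuffdiff statistic relative to the median gene, with Benjamini-Hochberg adjustment over 19608 transcripts at 0.05. It called 4 of the 10 genes lower and 3 higher, beside 10.2% lower and 8.37% higher of the 16303 genes tested. By size, 3 were at least 2-fold lower and 1 at least 2-fold higher, beside 2.85% and 1.67% of 14154 genes. The 10 log2 folds had a median of -0.33, where all genes have 0 by construction. By the authors' own q-values, which are not relative to the median gene, 4 were lower and 5 higher, beside 3.46% lower and 54.7% higher of all genes. In whole skin, fewer cells of a type and less RNA per cell cannot be told apart.

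Klk7 stood at 6.00 FPKM in skin labelled Cyp26b1-/- and 127 FPKM in wild-type skin. It was listed highest of the 10 genes in wild-type skin, with Cdsn close to it at 122 FPKM and no spread to order them, and ranked 8 of 10 in skin labelled Cyp26b1-/-. Its fold in the authors' deposited table, taken relative to the median gene, was -4.88 on the log2 scale with a model SE of 0.21 and a Benjamini-Hochberg adjusted p of 1.36e-114 from the recomputed Cuffdiff statistic. The SE is that of Cuffdiff's model and not a spread between animals. For calls and deposited folds the median is that of the deposited log2 folds over tested transcripts, 0.474. They therefore differ from the folds of FPKM + 1 in the figures, where Klk7 stood at -4.63. Klk5, which can activate itself and then Klk7, stood at 13.8 FPKM in skin labelled Cyp26b1-/- and 88.0 FPKM in wild-type skin. Its fold from the authors' deposited table relative to the median gene was -3.15 (SE 0.19, Cuffdiff statistic, Benjamini-Hochberg adjusted p = 1.78e-60). Klk7 fell further than Klk5, with a difference between their log2 folds of -1.73 (SE 0.28) in the authors' deposited table. That SE, like those of the later differences between genes, joins 2 model SEs taken as independent, although both genes come from the same libraries.

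Cdsn, the substrate, stood at 20.2 FPKM in skin labelled Cyp26b1-/- and 122 FPKM in wild-type skin. Its fold from the authors' deposited table relative to the median gene was -3.08 (SE 0.16, Cuffdiff statistic, Benjamini-Hochberg adjusted p = 1.61e-84). The fold of Klk5 minus that of Cdsn was -0.08 (SE 0.24) in the authors' deposited table, a difference smaller than its SE. Spink5, the inhibitor, stood at 55.6 FPKM in skin labelled Cyp26b1-/- and 73.5 FPKM in wild-type skin, a smaller difference than those of Klk5 and Klk7. Its fold was -0.88 relative to the median gene and -0.40 before, both from the authors' deposited table (SE 0.15, Cuffdiff statistic, Benjamini-Hochberg adjusted p = 8.94e-08). The ratio of Spink5 to Klk7 FPKM was 9.27 in skin labelled Cyp26b1-/- and 0.577 in wild-type skin, and that of Spink5 to Klk5 was 4.04 in skin labelled Cyp26b1-/- and 0.835 in wild-type skin.

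Klk10, a kallikrein whose human form has weak or no protease activity, stood at 287 FPKM in skin labelled Cyp26b1-/- and 70.3 FPKM in wild-type skin. It ranked first of the 10 genes in skin labelled Cyp26b1-/- and 5 of 10 in wild-type skin. Its fold from the authors' deposited table relative to the median gene was 1.55 (SE 0.14, Cuffdiff statistic, Benjamini-Hochberg adjusted p = 1.55e-25). Klk13, a trypsin-like protease known in humans from wet-surface epithelia such as the tonsil and oesophagus, stood at 119 FPKM in skin labelled Cyp26b1-/- and 48.5 FPKM in wild-type skin. Its fold from the authors' deposited table relative to the median gene was 0.82 (SE 0.15, Cuffdiff statistic, Benjamini-Hochberg adjusted p = 8.73e-07).

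Klk11, a trypsin-like protease, is carried by 2 transcripts, which summed to 87.1 FPKM in skin labelled Cyp26b1-/- and 46.5 FPKM in wild-type skin. Most of the level was NM_001177373, at 81.2 FPKM in skin labelled Cyp26b1-/- and 41.1 FPKM in wild-type skin. Its fold from the authors' deposited table relative to the median gene was 0.51 (SE 0.15, Cuffdiff statistic, Benjamini-Hochberg adjusted p = 0.00589), and the other transcript, NM_019974, was not called at 5.85 FPKM in skin labelled Cyp26b1-/- and 5.33 FPKM in wild-type skin (adjusted p = 0.546).

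Klk8, a trypsin-like protease also called neuropsin, stood at 95.1 FPKM in skin labelled Cyp26b1-/- and 63.1 FPKM in wild-type skin, and its fold relative to the median gene was 0.12 (SE 0.14, from the authors' deposited table, Cuffdiff statistic, Benjamini-Hochberg adjusted p = 0.658). Its q-value in the authors' deposited table was 0.0002 on a fold of 0.59. Klk14, a trypsin-like protease that cuts desmosomal cadherins, was low at 1.08 FPKM in skin labelled Cyp26b1-/- and 0.36 FPKM in wild-type skin (recomputed Cuffdiff statistic, Benjamini-Hochberg adjusted p = 0.273), with a q-value of 0.032 in the authors' deposited table. Klk6, a trypsin-like protease first known from brain, stood at 0.46 FPKM in skin labelled Cyp26b1-/- and 1.01 FPKM in wild-type skin. Its transcripts were called in opposite directions by the q-values of the authors' deposited table, NM_001164697 at 0.36 FPKM in skin labelled Cyp26b1-/- and 0 FPKM in wild-type skin, and NM_011177 listed at 0 FPKM in skin labelled Cyp26b1-/- and 0.51 FPKM in wild-type skin, so the gene has no call. An antisense RNA gene, 2310002F09Rik, lies on the minus strand from 50950579 to 51053315 and shares 369 exon bases with Klk8. It also overlaps an exon of Klk14 in GENCODE, whose Klk14 model ends at 50950906, past the end at 50950389 in the files. Whether counting used strand is not given in the sources used here, so their reads cannot be told apart. Words of 36 bases shared with another gene were 5 of 1172 in Klk14 and 0 in the other 9 genes.

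**Figure D1:**
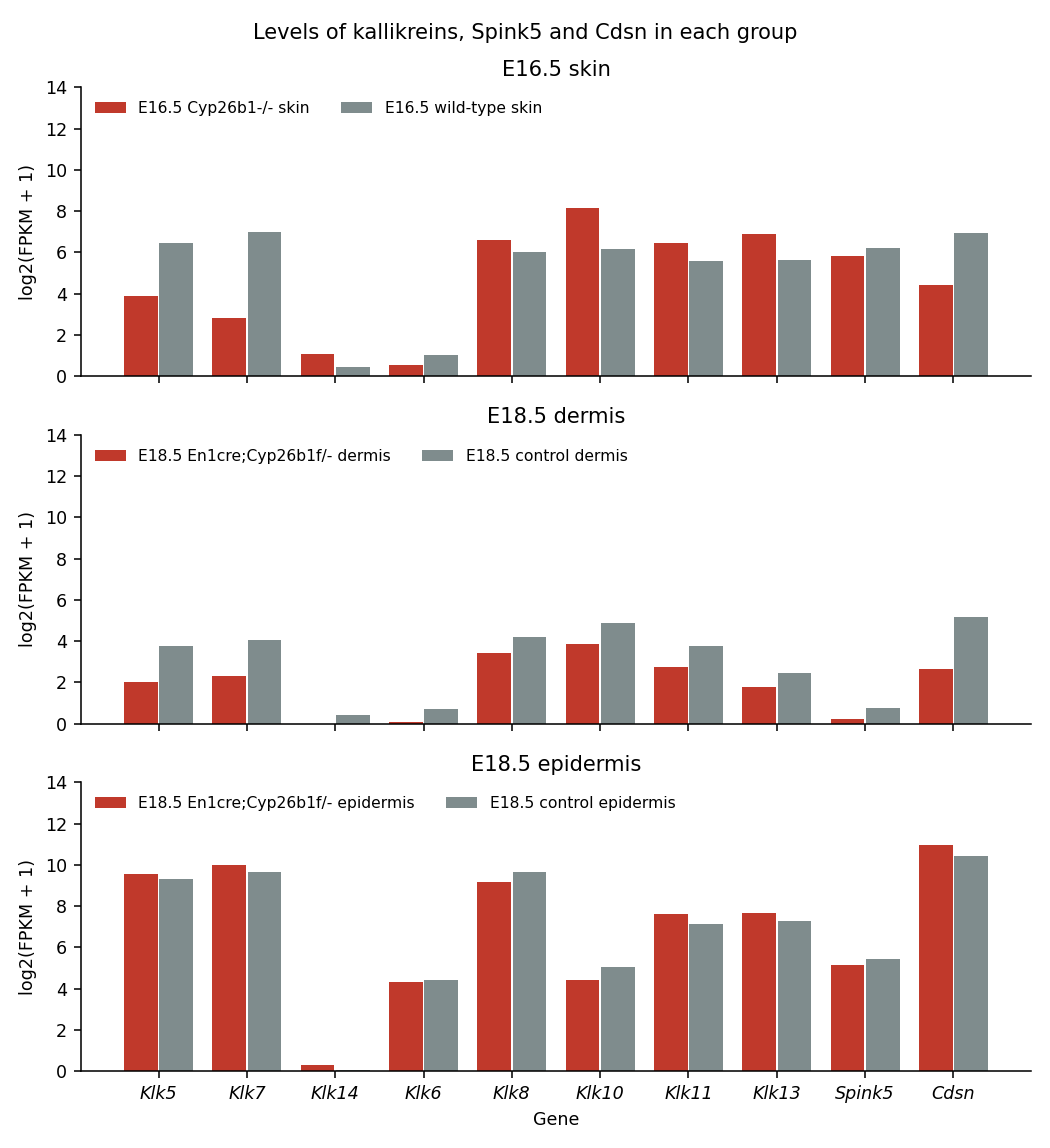
Level of the 10 genes (horizontal axis) as log2(FPKM + 1) (vertical axis), in 1 panel a table, with the mutant bar (red) left of its control (grey). Each bar is 1 deposited value per group with no error, and at E16.5 Klk7, Klk5 and Cdsn are lower in skin labelled Cyp26b1-/- than in wild-type skin while Klk10 is higher.

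The make-up of the kallikrein transcripts differed between the groups. The 8 kallikreins summed to 609 FPKM in skin labelled Cyp26b1-/- and 445 FPKM in wild-type skin. Those sums are not relative to the median gene, whose own log2 fold of 0.43 ran the same way. They are not read as a rise. Klk5 and Klk7 made up 3.24% of that sum in skin labelled Cyp26b1-/- and 48.4% in wild-type skin, and Klk10 alone made up 47.1% in skin labelled Cyp26b1-/- and 15.8% in wild-type skin. Klk8, Klk10, Klk11 and Klk13 together held 96.5% in skin labelled Cyp26b1-/- and 51.3% in wild-type skin. The ratio of Klk10 to Klk7 FPKM was 47.8 in skin labelled Cyp26b1-/- and 0.552 in wild-type skin, and the difference between their deposited log2 folds was 6.44 (SE 0.26) in the authors' deposited table.

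**Figure D2:**
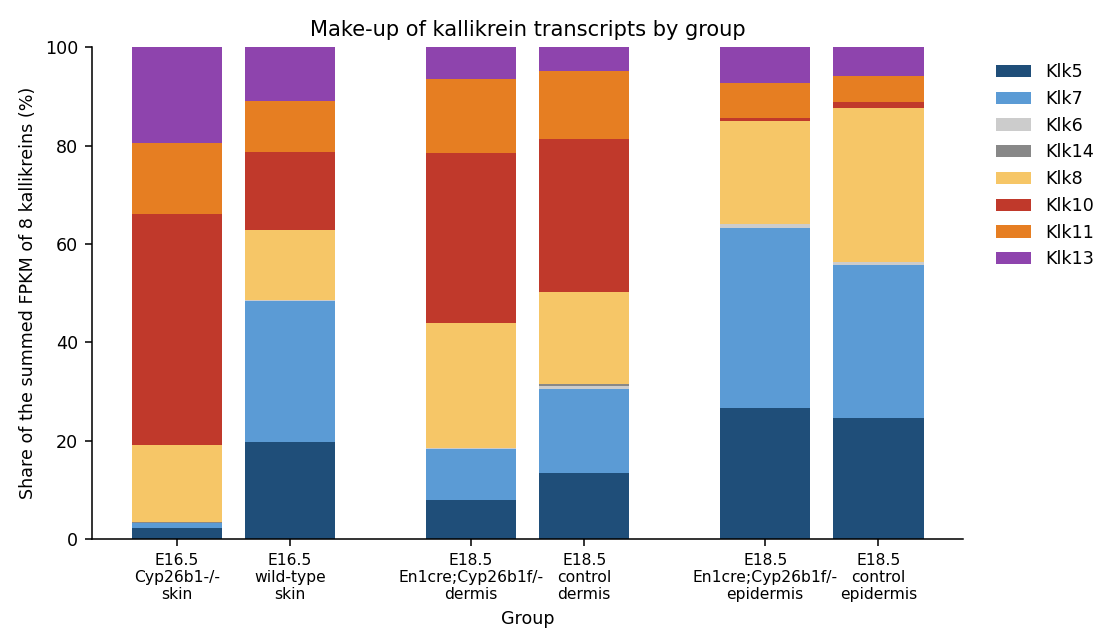
Share of the summed FPKM of the 8 kallikreins (vertical axis, percent) held by each, 1 stacked bar for each group column with the mutant left of its control. Klk5 and Klk7 hold 3.24% in skin labelled Cyp26b1-/- and 48.4% in wild-type skin, against 63.3% in En1cre epidermis and 55.7% in control epidermis.

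Markers of cell types gave values beside these differences. The basal keratinocyte markers summed to 1787 FPKM in skin labelled Cyp26b1-/- and 2271 FPKM in wild-type skin, and 1 of 5 tested fell, namely Krt14. The granular and cornified keratinocyte markers summed to 5469 FPKM in skin labelled Cyp26b1-/- and 5863 FPKM in wild-type skin. Of 7 tested, 3 were called lower relative to the median gene, beside 10.2% of all genes, and 0 higher. By the authors' q-values 2 were lower and 1 higher. Ivl moved furthest, at 35.7 FPKM in skin labelled Cyp26b1-/- and 194 FPKM in wild-type skin. Casp14 counts among the 3 although it stood at 151 FPKM in both groups. The fibroblast markers summed to 1582 FPKM in skin labelled Cyp26b1-/- and 1204 FPKM in wild-type skin, over 4 of 6 genes. Relative to the median gene 0 of the 4 were called higher and 1 lower, with a median log2 fold of -0.07. By the authors' q-values 2 were higher and 0 lower. No marker of these 3 lists was at 0 among the genes with a usable value, and their part in the kallikrein differences was not tested.

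In chromosome order, Klk13, Klk12, Klk11 and Klk10 rose, Klk9, Klk7 and Klk5 fell, with Klk8 and Klk6 between them not called, and Klk4 rose. From Klk14 to Klk1 the cluster holds 28 genes between 50945789 and 51484987, of which 13 reached 1 FPKM at E16.5. Of these, 5 were called higher and 3 lower, beside 8.37% higher and 10.2% lower of all genes tested. The calls include those of Klk13, Klk11, Klk10, Klk7 and Klk5 given above. Klk12, between Klk13 and Klk11, stood at 9.23 FPKM in skin labelled Cyp26b1-/- and 0.47 FPKM in wild-type skin (log2 fold 2.37). Klk9, between Klk10 and Klk8, fell with Klk7 and Klk5, at 11.6 FPKM in skin labelled Cyp26b1-/- and 19.8 FPKM in wild-type skin (log2 fold -1.15), and Klk4, beyond Klk5, rose, at 2.52 FPKM in skin labelled Cyp26b1-/- and 0.07 FPKM in wild-type skin (log2 fold 1.29). Of the 18 other kallikreins listed, 6 were tested at E16.5, with 2 called higher and 1 lower, beside the same shares of all genes. In epidermis Klk9 reached 354 FPKM in En1cre epidermis and 261 FPKM in control epidermis. Ctu1, the nearest gene before Klk14 in the table, was not called, at 10.5 FPKM in skin labelled Cyp26b1-/- and 6.29 FPKM in wild-type skin.

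**Figure D3:**
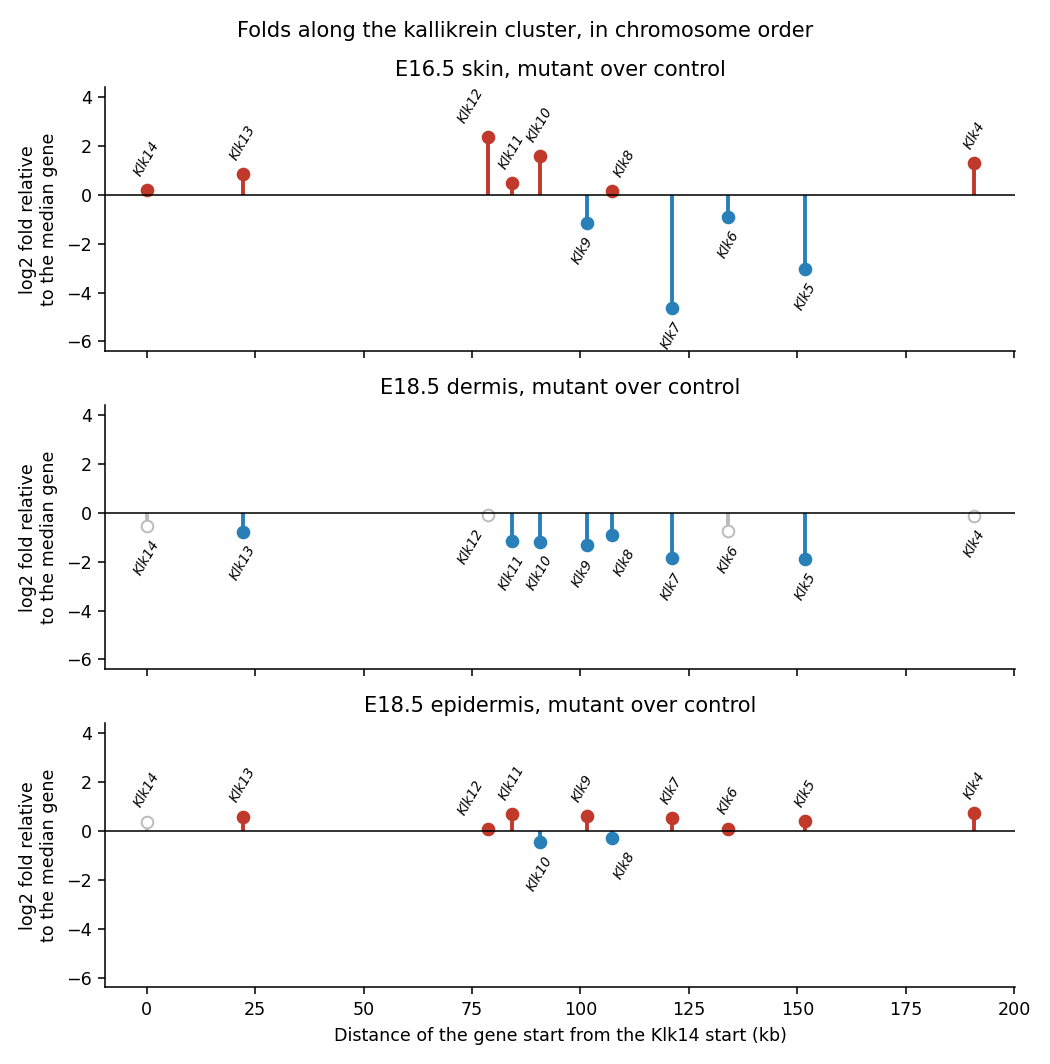
Log2 fold relative to the median gene, mutant over control (vertical axis), of the genes from Klk14 to Klk4 against the distance of each start from that of Klk14 in kb (horizontal axis), in 1 panel a table, red above 0, blue below 0 and grey open points for genes under 1 FPKM. At E16.5 Klk13, Klk12, Klk11, Klk10 and Klk4 were called higher and Klk9, Klk7 and Klk5 lower.

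Cdsn and Spink5 lie outside the cluster, Cdsn on chromosome 17 from 35689073 to 35694125 and Spink5 on chromosome 18 from 44122895 to 44182141 (mm9). Psors1c2, next to Cdsn, rose, at 350 FPKM in skin labelled Cyp26b1-/- and 8.13 FPKM in wild-type skin (log2 fold 4.84), where Cdsn fell. On the other side of Cdsn, 2300002M23Rik also rose, at 104 FPKM in skin labelled Cyp26b1-/- and 16.1 FPKM in wild-type skin (log2 fold 2.20). Next to Spink5, Gm94 fell, at 8.72 FPKM in skin labelled Cyp26b1-/- and 63.5 FPKM in wild-type skin (log2 fold -3.16), and Spink14 was listed at 0 FPKM in skin labelled Cyp26b1-/- and 0.25 FPKM in wild-type skin.

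In E18.5 dermis the genes that reached 1 FPKM ran 1 way. All 10 were lower in En1cre dermis than in control dermis by FPKM, but Klk6, Klk14 and Spink5 stayed under 1 FPKM. The share of all genes lower by FPKM was not counted. Of the 7 that reached 1 FPKM, 5 were at least 2-fold lower and 0 higher, beside 13.9% lower and 14% higher of the 13398 genes. There is 1 library a group here and no test. Cdsn stood at 5.26 FPKM in En1cre dermis and 34.7 FPKM in control dermis (log2 fold -2.64). Klk5 stood at 3.04 FPKM in En1cre dermis and 12.6 FPKM in control dermis (-1.87), and Klk7 at 4.01 FPKM in En1cre dermis and 15.7 FPKM in control dermis (-1.86). These 3 genes, the lowest relative to the median gene at E16.5, were the lowest here too. Klk10, which was higher at E16.5, stood at 13.4 FPKM in En1cre dermis and 28.8 FPKM in control dermis (-1.18), and Klk11 at 5.75 FPKM in En1cre dermis and 12.8 FPKM in control dermis (-1.16). The Klk11 sum hides its transcripts: NM_001177373 was at 1.3 FPKM in En1cre dermis and 8.45 FPKM in control dermis, while NM_019974 was at 4.45 FPKM in En1cre dermis and 4.36 FPKM in control dermis.

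The remaining dermal values were smaller or low. Klk8 stood at 9.79 FPKM in En1cre dermis and 17.5 FPKM in control dermis (-0.90), and Klk13 at 2.49 FPKM in En1cre dermis and 4.46 FPKM in control dermis (-0.77). Klk6, Klk14 and Spink5 stayed under 1 FPKM: Klk6 was at 0.06 in En1cre dermis and 0.64 in control dermis, and Spink5 at 0.16 in En1cre dermis and 0.69 in control dermis. Klk14 was listed at 0 in En1cre dermis and at 0.34 FPKM in control dermis. Keratinocyte markers were lower beside them. Basal markers summed to 3072 FPKM in En1cre dermis and 10948 FPKM in control dermis, with 5 of 6 at least 2-fold lower, beside 13.9% of all genes. Granular markers summed to 279 FPKM in En1cre dermis and 927 FPKM in control dermis, with 6 of 8 at least 2-fold lower. The 4 usable fibroblast markers summed to 607 FPKM in En1cre dermis and 220 FPKM in control dermis, and the labelled dermis thus held keratinocyte transcripts in both libraries. Their part in the kallikrein differences was not tested.

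In E18.5 epidermis, with 1 library a group and no test, 6 of the 10 genes were higher in En1cre epidermis than in control epidermis by FPKM and 4 lower. The share of all genes higher by FPKM was not counted here. Klk14 counts among the 6 although it stayed under 1 FPKM, and Klk6, lower by FPKM, lay above the median gene. Cdsn stood at 1964 FPKM in En1cre epidermis and 1377 FPKM in control epidermis (log2 fold 0.69), and Klk7 at 1023 FPKM in En1cre epidermis and 811 FPKM in control epidermis (0.51). Klk5 stood at 747 FPKM in En1cre epidermis and 639 FPKM in control epidermis (0.40). Of the 9 genes that reached 1 FPKM, 0 were at least 2-fold higher and 0 at least 2-fold lower, beside 3.49% and 4.86% of the 11362 genes, shares so low that the count sets these genes apart from no others. Klk11 stood at 195 FPKM in En1cre epidermis and 138 FPKM in control epidermis (0.67), and Klk13 at 204 FPKM in En1cre epidermis and 153 FPKM in control epidermis (0.59). Klk8 was lower, at 585 FPKM in En1cre epidermis and 811 FPKM in control epidermis (-0.29), and so was Klk10, at 20.6 FPKM in En1cre epidermis and 32.3 FPKM in control epidermis (-0.44). Klk10, the top gene of skin labelled Cyp26b1-/- at E16.5, was therefore among the lower kallikreins here. Spink5 stood at 35.0 FPKM in En1cre epidermis and 42.8 FPKM in control epidermis (-0.10), Klk6 at 19.1 FPKM in En1cre epidermis and 20.2 FPKM in control epidermis (0.10), and Klk14 at 0.22 FPKM in En1cre epidermis and 0.06 FPKM in control epidermis. Basal markers summed to 1058 FPKM in En1cre epidermis and 4215 FPKM in control epidermis, with 5 of 6 at least 2-fold lower, and 4 of 8 granular markers had no usable value. The other 4, Ivl, Casp14, Cnfn and Tgm3, were higher in En1cre epidermis and summed to 3262 FPKM in En1cre epidermis and 2180 FPKM in control epidermis, with a median log2 fold of 0.77. Fibroblast markers summed to 77.6 FPKM in En1cre epidermis and 227 FPKM in control epidermis. The part of these markers in the kallikrein differences was not tested.

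**Figure D4:**
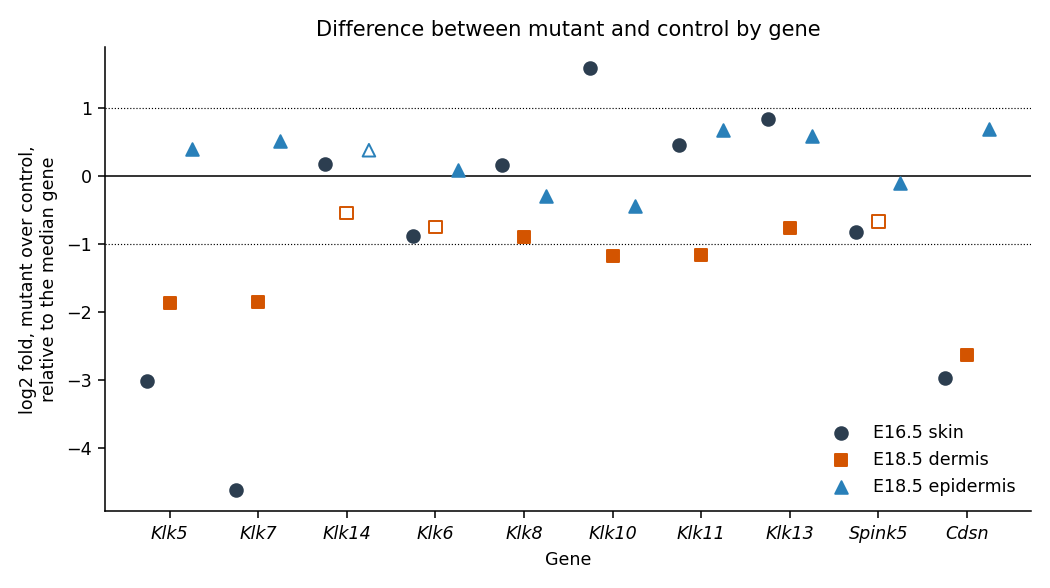
Log2 fold relative to the median gene, mutant over control (vertical axis), of each of the 10 genes (horizontal axis) in the 3 tables, with open symbols for genes under 1 FPKM and dotted lines at 2-fold. At E16.5 values run from -4.63 to 1.59, in dermis from -2.64 to -0.77 over 7 genes, and in epidermis from -0.44 to 0.69 over 9 genes.

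The order of levels changed with the tissue. Klk5 and Klk7 made up 18.3% of the kallikrein sum in En1cre dermis and 30.4% in control dermis, and 63.3% in En1cre epidermis and 55.7% in control epidermis. Klk10 made up 34.7% in En1cre dermis and 31.1% in control dermis, but 0.738% in En1cre epidermis and 1.24% in control epidermis. Klk7 to Klk5 ratios lay at 0.436 in skin labelled Cyp26b1-/- and 1.45 in wild-type skin, 1.32 in En1cre dermis and 1.25 in control dermis, and 1.37 in En1cre epidermis and 1.27 in control epidermis. With 1 value a group, neighbours this close in rank, such as Klk7 at 127 and Cdsn at 122 FPKM in wild-type skin, cannot be ordered beyond their spread. The 3 tables were normalised separately, so levels across them are set side by side only. Over the 6 columns the gene most like the mean profile was Pla2g2f (Pearson r 0.999), then Alox12 (0.997), Rgs20 (0.996), Trex2 (0.996) and Ssfa2 (0.996), of 12064 candidates. The 6 columns come from 3 tissues, and within a table both columns share its normalisation. Among the 10 genes, Klk10 (0.162) and Klk14 (0.0397) followed the mean least.

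Genes of the wider pathway, on lists chosen with earlier results of these data known, were described by counts. At E16.5 the other epidermal proteases had 4 called higher and 10 lower of 25 tested, with a median log2 fold of -0.28, beside 8.37% higher and 10.2% lower of all genes. By the authors' q-values, with no shift to the median gene, 10 were higher and 3 lower, so the balance turns with the scaling. Calls are relative to the median gene, so Casp14, at 151 FPKM in skin labelled Cyp26b1-/- and 151 FPKM in wild-type skin, counts among the 10 lower. Prss27, a membrane serine protease, was the largest rise, at 48.1 FPKM in skin labelled Cyp26b1-/- and 6.08 FPKM in wild-type skin, and Blmh, a cysteine protease that degrades filaggrin peptides, fell, at 207 FPKM in skin labelled Cyp26b1-/- and 405 FPKM in wild-type skin. Protease inhibitors other than Spink5 had 5 called higher and 10 lower of 26 tested, median -0.30, and 9 higher and 10 lower by the authors' q-values. The steepest fall was Serpina12, a serpin known in human to inhibit KLK7, at 0.21 FPKM in skin labelled Cyp26b1-/- and 16.2 FPKM in wild-type skin. The stefins Stfa2, Stfa3 and Csta, inhibitors of cysteine proteases, also fell, Stfa3 at 390 FPKM in skin labelled Cyp26b1-/- and 2680 FPKM in wild-type skin.

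Junction genes had 5 called higher and 5 lower of 17 tested, beside 8.37% higher and 10.2% lower of all genes, and 6 higher and 2 lower by the authors' q-values. Dsc2, a desmosomal cadherin, rose, at 21.7 FPKM in skin labelled Cyp26b1-/- and 7.07 FPKM in wild-type skin, Dsg3 rose, at 21.0 FPKM in skin labelled Cyp26b1-/- and 7.88 FPKM in wild-type skin, and Evpl, the envoplakin gene, rose, at 387 FPKM in skin labelled Cyp26b1-/- and 142 FPKM in wild-type skin. Dsg1a, whose protein is a kallikrein substrate, fell, at 88.7 FPKM in skin labelled Cyp26b1-/- and 123 FPKM in wild-type skin. In dermis 13 of 14 such genes were at least 2-fold lower, with a median of -1.53, beside 13.9% lower and 14% higher of all genes. In epidermis 4 of 14 were lower and 1 higher, with a median of -0.12, beside 4.86% lower and 3.49% higher of all genes. There Dsg1a stood at 55.0 FPKM in En1cre epidermis and 145 FPKM in control epidermis, while Evpl stood at 669 FPKM in En1cre epidermis and 343 FPKM in control epidermis. Among proteases in dermis, 6 were at least 2-fold lower and 7 higher of 19, beside 13.9% lower and 14% higher of all genes. St14 (matriptase, a membrane protease able to activate kallikreins) stood at 12.7 FPKM in En1cre dermis and 50.1 FPKM in control dermis. Ctsl stood at 127 FPKM in En1cre dermis and 15.9 FPKM in control dermis. Inhibitors in dermis had 7 lower and 1 higher of 18, beside the same shares of all genes. In epidermis 0 proteases were lower and 1 higher of 21, near the shares of all genes there (4.86% lower and 3.49% higher). Of 19 inhibitors, 4 were lower and 1 higher, with Stfa1 at 190.0 FPKM in En1cre epidermis and 1084 FPKM in control epidermis. Spint1, the matriptase inhibitor, stood at 82.3 FPKM in En1cre epidermis and 41.1 FPKM in control epidermis.

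**Figure D5:**
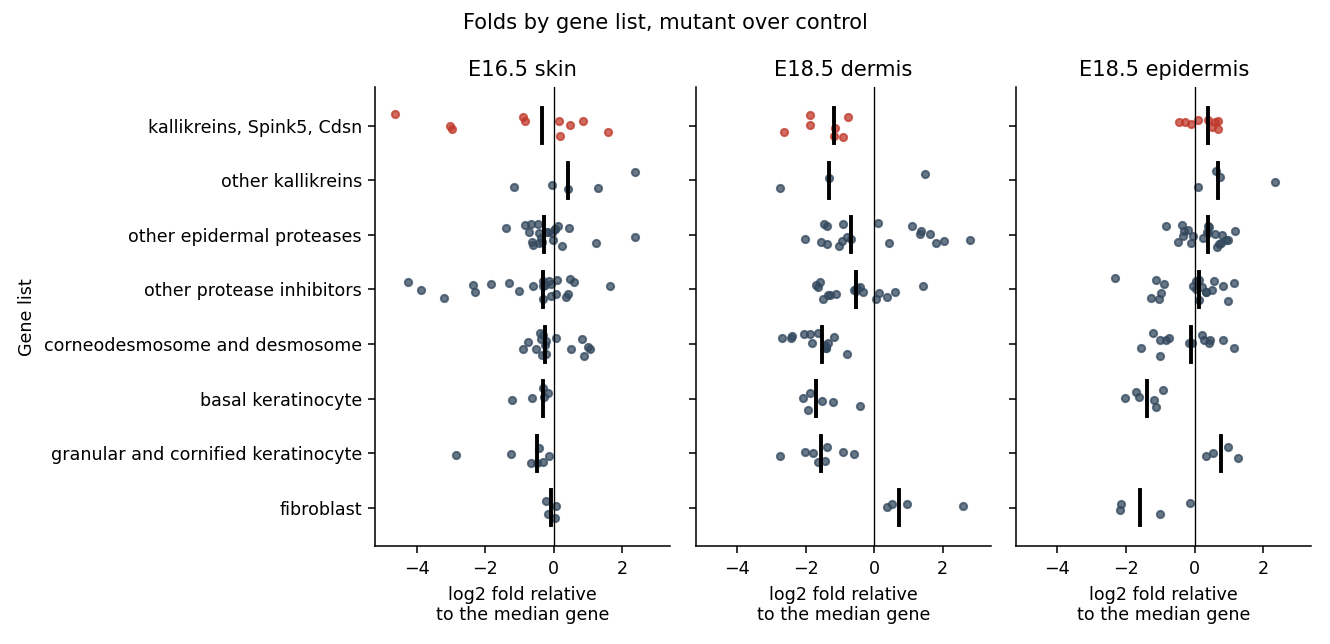
Log2 fold relative to the median gene, mutant over control (horizontal axis), of genes of at least 1 FPKM in each list (vertical axis), in 1 panel a table, 1 point a gene, with a black bar at the list's median. The median of the desmosome list is -0.24 at E16.5 and -0.12 in epidermis, against -1.53 in dermis.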

How the data were processed

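Gene expression was measured by RNA sequencing in 8 libraries, with libraries made with an Illumina TruSeq kit per the labels' protocols. The tools named in the submitters' processing notes are Cuffdiff 1.3.0, Cufflinks, TopHat 1.3.2 and Bowtie 0.12.7.0, and the build is mm9; roles are not stated. The FPKM deposited by the authors are normalised for length and library size, 1 value per RefSeq transcript and group, with both E16.5 libraries of a group joined. Per the file headers, the authors also deposited for each transcript a p-value, a q-value, the log2 fold and its statistic. Strand handling is not given in the sources used here, and the file gives no counts, so no count test was run and depth is unknown.

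FPKM were summed per symbol, and log2((mutant + 1)/(control + 1)) was taken minus the median over genes of at least 1 FPKM in either group, a scale that understates changes of low genes. For E16.5 the deposited statistic was recomputed relative to the median deposited log2 fold of 0.474, with a two-sided normal p-value and Benjamini-Hochberg adjustment at 0.05. Before that shift, the largest gap between the normal p and the p-value the authors deposited was 0.00401. The SE was obtained by dividing fold by statistic (running median for 202 transcripts), and the 322 transcripts at 0 FPKM in 1 group kept the authors' call by q-value. A gene was called when a transcript passed 1 way and none the other. E18.5 has 1 library a group, so no p-value was made. Rows with a failed estimate (1080 transcripts at E16.5, 62 in dermis, 57 in epidermis) may show 0 FPKM although the gene is abundant, and their genes have no fold here. The calculation was run on simulated folds drawn with the same SE that it divides by. That run checks the arithmetic and cannot show whether Cuffdiff's SE is right.

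The members and lists were chosen with earlier results of these data known. Named were the 10 members, the 4 genes of each list with the largest fold at 5 FPKM or more (the few that matter printed), cluster and nearest neighbours, and the 5 genes most alike. Starts count from 0 in the files and had 1 added: 7 of 10 member starts then equal GENCODE. Promoters came from RefSeq GRCm38.p6. Python 3.11.15, pandas 2.3.3, NumPy 2.4.6 and SciPy 1.17.1 were used. Alternatives were the pseudocount, scaling, threshold, transcript and GC choices.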

Additional observations from a re-analysis of the deposited data

Results flagged for a closer look

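Of the 7 genes that reached 1 FPKM in dermis, 5 lay on opposite sides of the median gene in the 2 tissues of E18.5 En1cre;Cyp26b1f/- embryos. They were lower in dermis and higher in epidermis than in the controls. Klk6, Klk14 and Spink5, under 1 FPKM in dermis, are left out of this count. Klk8 (-0.90 in dermis and -0.29 in epidermis) and Klk10 (-1.18 and -0.44) were lower in both. Each tissue is centred on its own median gene. The share of all genes on opposite sides was not computed, so the count sets these genes apart from no others. The log2 fold in epidermis minus that in dermis was 3.33 for Cdsn, 2.37 for Klk7, 2.27 for Klk5, 1.83 for Klk11 and 1.36 for Klk13. Each fold rests on 1 mutant and 1 control library, and the difference was not tested. Basal keratinocyte markers summed to 3072 FPKM in En1cre dermis and 10948 FPKM in control dermis, and to 1058 FPKM in En1cre epidermis and 4215 FPKM in control epidermis. Granular and cornified keratinocyte markers differed in opposite directions, as these 5 genes did, summing to 279 FPKM in En1cre dermis and 927 FPKM in control dermis (8 genes, median log2 fold -1.54), and to 3262 FPKM in En1cre epidermis and 2180 FPKM in control epidermis (4 genes, median 0.77). The part of both marker lists in these differences was not tested.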

How the results depend on the processing

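No paired analysis was possible because each E16.5 column joins both libraries of its group, and for the same reason leaving out a library was not run. At E16.5 the count of 4 members called lower did not move under any of the 4 alternatives. The count called higher was 3, and 5 under the authors' scaling and q-values, which add Klk8 and Klk14. In dermis the 5 members at least 2-fold lower became 1 at a 4-fold threshold and 3 with a pseudocount of 5. In epidermis 0 members were at least 2-fold higher, and 3 were past a 1.5-fold threshold. Across alternatives the E16.5 log2 fold of Klk7 ranged from -4.86 to -3.91, of Klk5 from -3.14 to -2.59, of Cdsn from -3.07 to -2.54 and of Klk10 from 1.5 to 2.01. Of 206 member folds recomputed, 184 stayed within the set margin and 22 moved past it. That margin was wide and does not mean a stable value. The Klk11 fold in dermis, -1.16, counts within it at -2.14 with the highest transcript alone. The sign changed, also within the margin, in uncalled or untested values. These were Klk14 at E16.5 (-0.13 to 0.89), Klk6 in epidermis (-0.08 to 0.12) and Spink5 in epidermis (-0.35 to 0.26). Centring on genes of like transcript GC content, and several E18.5 count settings, were added after seeing the data. Promoter GC had a value for 9 of the 10 members. The limits are 1 value a group, unknown depth and, at E18.5, 1 library a group.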

Other observations

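Genes cut or signalled to by kallikreins had 1 called higher and 6 lower of 11 tested at E16.5, beside 8.37% higher and 10.2% lower of all genes. By the authors' q-values 4 were higher and 3 lower, so the balance turns with the scaling. The antimicrobial defensins divided: Defb1 rose, at 80.2 FPKM in skin labelled Cyp26b1-/- and 31.0 FPKM in wild-type skin, while Defb14 fell, at 5.40 FPKM in skin labelled Cyp26b1-/- and 18.9 FPKM in wild-type skin, and Defb4 fell, at 1.39 FPKM in skin labelled Cyp26b1-/- and 7.20 FPKM in wild-type skin.

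Genes that set the acidity or the sterol sulphate of the cornified layer had 2 called higher and 4 lower of 7 tested at E16.5, beside 8.37% higher and 10.2% lower of all genes. By the authors' q-values 2 were higher and 2 lower, beside 54.7% and 3.46%. Car13 counts among the 4 lower, relative to the median gene, although it stood at 55.6 FPKM in skin labelled Cyp26b1-/- and 53.4 FPKM in wild-type skin. Hal, the histidine ammonia-lyase that makes urocanic acid, fell, at 0.51 FPKM in skin labelled Cyp26b1-/- and 22.5 FPKM in wild-type skin. In E18.5 epidermis Hal stood at 657 FPKM in En1cre epidermis and 453 FPKM in control epidermis.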
